A study of Homo sapiens with 6 samples.

Results

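The transcripts described here belong to 10 human genes of cellular iron handling, taken by symbol from the 58395 genes counted in each library. They are the ferritin chains FTH1 and FTL, the ferritin cargo receptor NCOA4, the uptake genes TFRC, STEAP3 and SLC11A2, the exporter SLC40A1, and the sensors IREB2, ACO1 and FBXL5. All 10 passed the filter on low counts. RNA was sequenced from THP-1, an established human monocytic leukaemia cell line, in 3 libraries of cells with no exposure and 3 libraries of cells given 1 µM monensin for 16 h. All cells were grown in RPMI medium with fetal bovine serum, no vehicle is named for the untreated cells, and an effect of a vehicle cannot be told apart from one of monensin. Monensin is a polyether ionophore that exchanges sodium ions for protons across membranes and raises the pH of acidic compartments.

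Cells take up iron bound to transferrin through the transferrin receptor, release it in acidic endosomes, reduce it and carry it into the cytosol. Iron that is not used is stored in ferritin, a shell of heavy (FTH1) and light (FTL) chains, or leaves through ferroportin (SLC40A1). Ferritin is returned to the lysosome by NCOA4. The iron regulatory proteins, encoded by ACO1 and IREB2, bind a hairpin in certain messages called the iron-responsive element when iron is scarce. In the 5′ untranslated region this blocks translation, and in the 3′ untranslated region it protects the message from decay. Macrophages are known for storing and exporting iron recovered from red cells, and THP-1 is widely used as a model of that lineage.

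The regulatory sequences that join these genes were read from GENCODE 29 transcripts on GRCh38. The search was for CNNNNNCAGTGN, in which the last base of the loop was not G, followed by 5 bases that pair with the 5 between the bulged C and the loop (G with T allowed), on the transcript strand. Of 19684 protein-coding genes, 214 (1.09%) held such a site in a coding transcript, and 4 of the 10 iron genes did: FTH1, FTL, SLC40A1 and TFRC. Each site is shown with flanks, 5′ to 3′, in DNA letters, and capitals mark the 6-base loop. They are printed because the genes that hold them did not move together.
FTH1, 5′ untranslated region, chr11:61967574-61967602, minus strand: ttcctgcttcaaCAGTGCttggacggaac
FTL, 5′ untranslated region, chr19:48965335-48965363, plus strand: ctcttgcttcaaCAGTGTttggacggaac
SLC40A1, 5′ untranslated region, chr2:189580661-189580689, minus strand: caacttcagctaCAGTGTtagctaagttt
TFRC, 3′ untranslated region, chr3:196050979-196051007, minus strand: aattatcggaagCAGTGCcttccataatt
TFRC, 3′ untranslated region, chr3:196050575-196050603, minus strand: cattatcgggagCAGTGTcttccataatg
TFRC, 3′ untranslated region, chr3:196050510-196050538, minus strand: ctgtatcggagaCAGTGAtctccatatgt
TFRC, 3′ untranslated region, chr3:196050463-196050491, minus strand: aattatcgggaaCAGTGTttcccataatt
The loops of FTL, SLC40A1 and the second and last TFRC sites listed have the same letters, and so do those of FTH1 and the first TFRC site. A match is a run of letters and not a measured binding site, and the counts are per gene, so isoforms with and without a site could not be separated.

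Each library held between 22975888 and 25710513 counted reads. Levels are CPM, that is counts relative to the TMM-scaled library size, and a gene was called when edgeR's quasi-likelihood test gave a Benjamini-Hochberg adjusted p under 0.05 over all 16542 tested genes. Intervals of log2 fold changes are 95% and not adjusted. Of 18 myeloid markers, 16 had a mean of at least 1 CPM, and their summed level was 4074 to 4320.1 CPM in untreated and 4127 to 4587 CPM in monensin libraries. Within that near-level sum 7 of the 16 tested markers rose and 5 fell, against 34.1% and 33.7% of all tested genes. LYZ, lysozyme, fell from 791 ± 14.3 to 292 ± 24.2 CPM and ITGAX, an integrin chain, rose from 37.0 ± 4.63 to 117.5 ± 6.65 CPM. Of 8 markers of T, B and NK cells, 4 were tested and 2 rose, where 34.1% of all tested genes did. Their summed level was 15.3 to 18.2 CPM in untreated and 31.2 to 32.9 CPM in monensin libraries. Most of that sum was 1 gene, NKG7, with means of 12.9 and 28.1 CPM, and CD3D, CD3E, CD8A and MS4A1 were too low to test. The part of these marker changes in the results on iron genes was not tested. HBB, HBA1, HBA2 and ALAS2, which are markers of erythroid cells, were at 0 in every library, and a count of 0 in a library allows up to 0.117 to 0.129 CPM (3 counts, counting error only). In bulk RNA, fewer cells with a transcript and less of it per cell cannot be told apart. The labels do not say whether the 3 libraries of a group were separate cultures; p-values therefore rest on the spread between libraries, which may be technical only.

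After monensin, both ferritin messages and the iron importer SLC11A2 rose, while the exporter SLC40A1, the ferritin cargo receptor NCOA4 and all 3 sensor genes fell. TFRC and STEAP3 were not called. In counts, 3 of the 10 genes were raised and 5 lowered, against 34.1% of all tested genes raised and 33.7% lowered (67.8% called in either direction). Scaling by raw library totals gave 4 raised and 4 lowered (6582 and 4605 of all tested genes), and correction for GC content and exonic length gave 4 raised and 6 lowered (4878 and 6426 of all tested genes). The groups did not overlap for 9 of the 10, against 71.1% of all tested genes. A share of called genes this close to the background is not a result about iron genes as a group. The size of the ferritin rise sets them further out: 1.15% of tested genes had a higher log2 fold change than FTH1 and 4.46% a higher one than FTL. FTH1 and FTL were raised at least 2-fold, as were 9.41% of tested genes, and SLC40A1 was lowered at least 2-fold, as were 3.83% of tested genes (13.2% in either direction). On the log2 scale SLC40A1 fell short of 2-fold by raw library totals (-0.94) and without monensin library 3 (-0.98). SLC11A2 passed 2-fold by raw library totals (1.01) and after correction for GC content and length (1.04).

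**Figure D1:**
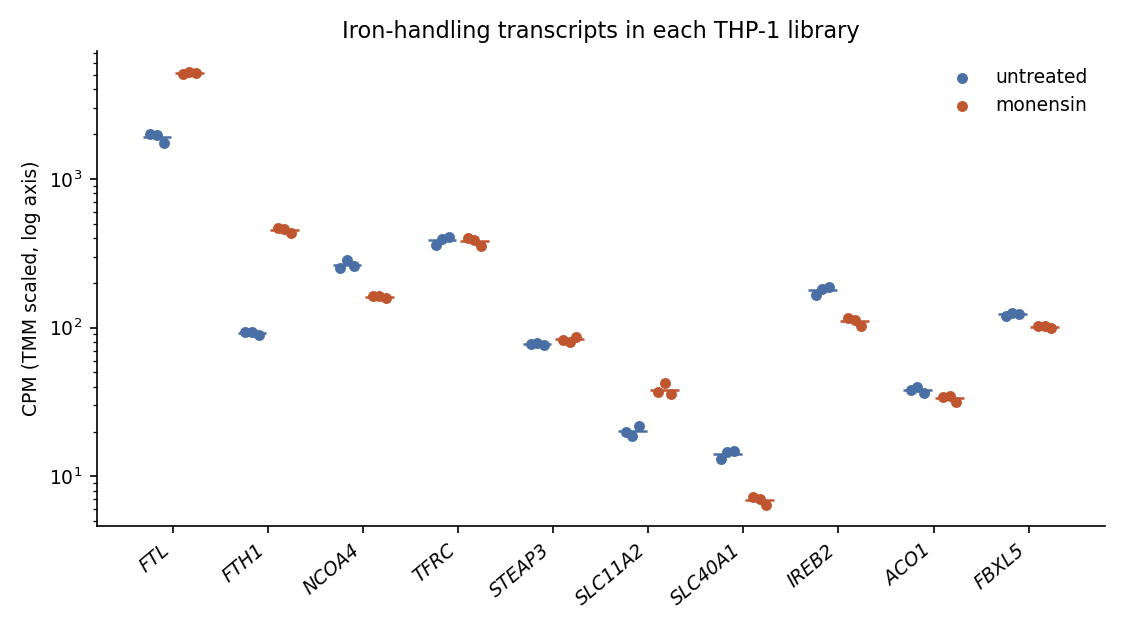
CPM of each of the 10 iron genes (log axis) in every library, with points for the 3 untreated and the 3 monensin libraries and a bar at each group's mean. The groups are apart for all genes but TFRC, whose untreated libraries run from 360 to 407 CPM and monensin libraries from 351 to 402 CPM.

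FTL, the light chain that helps form the ferritin mineral core, was the most abundant of the 10 messages. Its level was 2011, 1975 and 1744 CPM in the untreated libraries and 5029, 5191 and 5129 CPM in the monensin libraries. All monensin libraries lay more than 2-fold above every untreated one, and untreated library 3 was the lowest of its group. The log2 fold change was 1.42 (SE 0.05, adjusted p = 1.18e-12), a ratio of means of 2.68. FTL lies on chromosome 19 from 48965301 to 48966878 on GRCh38.

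FTH1, the heavy chain whose ferroxidase site oxidises iron for storage, had the largest change among the 10. It stood at 94.1, 92.8 and 89.2 CPM without exposure and at 464, 462 and 431 CPM after monensin. The untreated libraries agreed within a few CPM, and the lowest monensin library was still over 4 times the highest of them. The rise was 2.30 on the log2 scale (SE 0.04, interval 2.20 to 2.39, adjusted p = 2.13e-15). FTH1 lies on chromosome 11 from 61959718 to 61967660.

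The FTH1 count is uncertain in its level because much of the message has copies elsewhere. Of the 75-base windows of its longest coding transcript, 30.8% occur letter for letter in annotated FTH1 pseudogenes and 51.7% do so within 2 mismatches. Another 57.1% of the windows, in part the same ones, lie on exons of BEST1, a chloride channel gene on the opposite strand, and no source used here says whether counting used strand. BEST1 itself had 155, 144 and 148 counts in untreated libraries and 594, 557 and 463 in monensin libraries. Reads of the 2 genes cannot be told apart if strand was not used. The part of BEST1 in the FTH1 change was not tested, and that of the pseudogenes was not tested beyond the sums given next. For FTL, 9.45% of windows occur in pseudogenes exactly and 40.8% within 2 mismatches.

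The 25 rows of FTH1 pseudogenes together held 5.46% to 5.81% as many counts as FTH1 in untreated and 3.70% to 4.69% in monensin libraries. For the 16 rows of FTL pseudogenes these shares were 3.61% to 3.71% and 3.36% to 3.57%. Most of these reads fell on a single copy each: FTLP3 had 1796, 1626 and 1571 counts in untreated and 4450, 4274 and 4188 in monensin libraries, and FTH1P8 had 86, 85 and 84 against 412, 420 and 278. With all copies added to their parents, FTH1 and FTL stayed raised, and the log2 difference in their ratio was 0.86 in place of 0.87. With so small a share of the counts at the copies, this addition had to leave both rises in place, so it is no test of them. The addition moves only reads counted at a copy, so it does not test reads shared with the parent or with BEST1.

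The ratio of heavy to light message was higher in each monensin library than in any untreated one. FTH1 counts came to 4.68%, 4.70% and 5.11% of FTL counts in the untreated libraries and to 9.22%, 8.90% and 8.41% in the monensin libraries. The mean log2 ratio moved from -4.37 ± 0.07 to -3.50 ± 0.07 (SD, n = 3 each), a 1.83-fold shift. An exact two-sided permutation test gave p = 0.1, the smallest value that 3 libraries against 3 can give. This ratio is taken within a library, so scaling between libraries does not enter it; after correction for GC content and length the log2 difference was 0.93. Its absolute level is uncertain, since no source used here says how reads with several matches were counted. In each library 7.4% to 7.8% of all tallied reads were listed as not uniquely aligned. Whether any of these also entered gene counts is not stated, and the direction of the error in the FTH1 level was not tested.

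**Figure D2:**
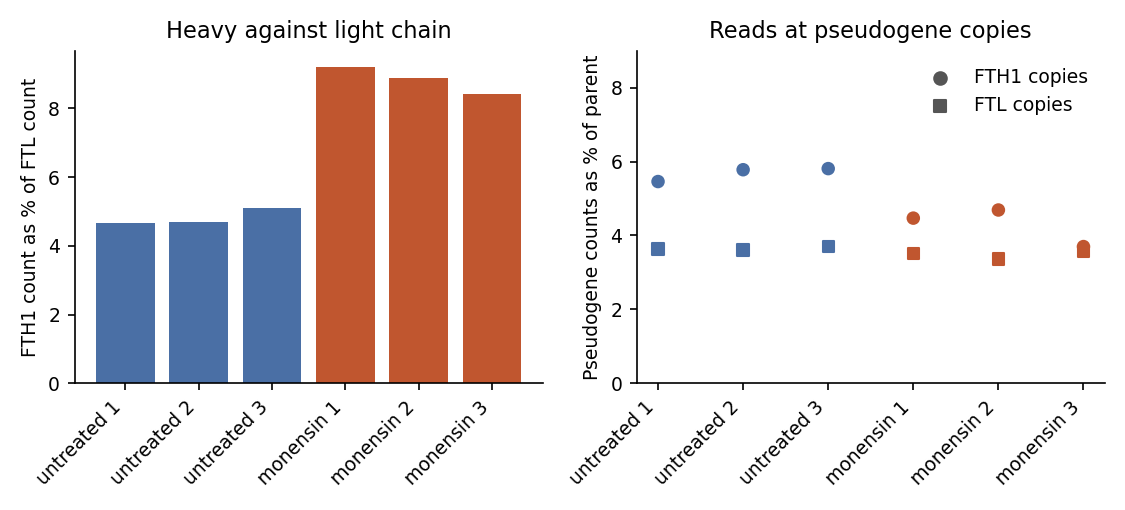
Left, FTH1 count as a percentage of the FTL count in each library, with bars from 0. Right, summed counts at FTH1 pseudogenes (circles) and FTL pseudogenes (squares) as a percentage of the parent gene's count; the heavy to light percentage is between 4.68 and 5.11 in untreated and between 8.41 and 9.22 in monensin libraries.

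NCOA4, which binds ferritin and delivers it to autophagosomes, moved the opposite way to its cargo. Its level was 251, 283 and 259 CPM in untreated and 162, 162 and 157 CPM in monensin libraries. The monensin libraries were tightly grouped and all lay below the untreated ones, and the log2 change was -0.72 (SE 0.05, adjusted p = 2.22e-09). Only 0.604% of the windows of its longest transcript occur in another gene's transcript, that of a pseudogene.

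Other genes listed for ferritin loading and turnover had log2 fold changes between -0.50 and 0.47. Of the 6 tested, 3 rose and HERC2 fell, where 34.1% and 33.7% of all tested genes did. PCBP2, a chaperone that hands iron to ferritin, rose from 199.6 ± 4.43 to 273 ± 5.26 CPM (mean ± SD, n = 3), and its relative PCBP4 by 0.47 on the log2 scale (0.16 after correction for GC content and length, adjusted p = 0.0104). TAX1BP1, an autophagy receptor that takes part in ferritin turnover, rose from 156 ± 5.69 to 195 ± 6.83 CPM, a log2 change of 0.32 that was 0.52 after that correction. HERC2, a ubiquitin ligase that targets NCOA4, fell from 129.7 ± 14.6 to 91.7 ± 1.92 CPM. PCBP1, another iron chaperone of ferritin, had 434 ± 20.3 and 460.5 ± 8.54 CPM and was not called (adjusted p = 0.0794). Scaling by raw library totals gave 5 raised and 1 lowered in this list (6582 and 4605 of all tested genes).

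TFRC, the transferrin receptor, held 4 of the 7 sites shown above and was not called. It had 360, 397 and 407 CPM in the untreated libraries and 402, 388 and 351 CPM in the monensin libraries. The ranges overlapped almost fully, and the log2 change was -0.03 (SE 0.05, interval -0.14 to 0.09, adjusted p = 0.665). The direction depended on the scaling: it was 0.06 (adjusted p = 0.374) by raw library totals, 0.15 and called (adjusted p = 0.00202) after correction for GC content and length, and 0.03 (adjusted p = 0.650) without monensin library 3. At 41.8%, the GC content of its transcripts was among the lowest of the 10 genes.

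STEAP3, the endosomal reductase that converts transferrin-delivered iron to the form that is transported, was not called, and its values lay close together in both groups. It stood at 77.7, 78.8 and 75.8 CPM without exposure and 82.7, 80.5 and 87.0 CPM after monensin. The groups did not overlap, but the log2 fold change of 0.11 (SE 0.05) missed the threshold (adjusted p = 0.0564). It was called upward by raw library totals (0.19, adjusted p = 0.00161) and with the stricter filter on low counts (0.12, adjusted p = 0.0241), and downward after correction for GC content and length (-0.14, adjusted p = 0.00583). The GC content of its transcripts, 57.4%, was the highest of the 10 genes. STEAP3-AS1, an antisense gene that covers 10.2% of its windows, had 7 counts in all 6 libraries together.

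SLC11A2, the divalent metal transporter DMT1 that moves reduced iron out of the endosome, rose. Its level was 19.9, 18.8 and 21.8 CPM in untreated and 37.0, 42.2 and 35.6 CPM in monensin libraries. The groups were well apart, with monensin library 2 the highest, and the log2 fold change was 0.92 (SE 0.07, adjusted p = 2.66e-08). SLC11A2 is described as having messages with and without an iron-responsive element; the search above found no match in its coding transcripts, and all its messages share 1 count.

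Among 12 other tested uptake genes, 7 rose and 2 fell, against 34.1% and 33.7% of all tested genes. Scaling by raw library totals gave 9 and 2 (6582 and 4605 of all tested genes). SLC11A1, the related metal transporter of phagosomes, went from 4.93, 4.80 and 5.79 CPM to 13.0, 11.4 and 12.8 CPM, which is 1.26 on the log2 scale (SE 0.10, adjusted p = 1.67e-08). LRP1, an endocytic receptor whose ligands include haem bound to haemopexin, rose from 17.1 ± 1.74 to 39.9 ± 4.01 CPM, and MCOLN1, a lysosomal cation channel that passes iron, from 10.9 ± 1.04 to 17.9 ± 1.40 CPM. The log2 change of MCOLN1 was 0.71, and 0.41 after correction for GC content and length. The importers of non-transferrin iron went apart: SLC39A14 rose from 224 ± 5.95 to 287.5 ± 21.0 CPM and SLC39A8 fell from 94.9 ± 3.23 to 51.9 ± 0.295 CPM. Their difference was not tested. TFR2, the second transferrin receptor, had 6.19 ± 0.761 and 6.17 ± 0.460 CPM and was not called (adjusted p = 0.951).

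SLC40A1, the gene of ferroportin and the only known iron exporter of vertebrate cells, fell by 1.03 on the log2 scale (SE 0.09, interval -1.21 to -0.84, adjusted p = 4.04e-08). Its counts were the lowest of the 10 genes, at 324, 339 and 366 in untreated libraries and 186, 176 and 151 in monensin libraries. These are 13.0, 14.5 and 14.8 CPM against 7.25, 7.04 and 6.47 CPM, with every monensin library far below every untreated one. The 5′ site shown above is in 1 annotated coding transcript of SLC40A1 and in 2 transcripts without an annotated coding sequence.

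Hepcidin and the copper ferroxidases were barely counted. HAMP, which encodes hepcidin, the hormone that degrades ferroportin, had 0 counts in the untreated and 2 in the monensin libraries, and the copper ferroxidases HEPH and CP had 14 and 2 counts over the untreated libraries and 6 and 3 over the monensin libraries. Of 6 other tested genes of this list, NDFIP1, an adaptor of ubiquitin ligases that act on DMT1, rose by 0.18 on the log2 scale (SE 0.04), or 0.36 after correction for GC content and length. RNF217, a ubiquitin ligase of ferroportin, and BMPR2, a receptor upstream of hepcidin, had log2 fold changes of -0.29 (adjusted p = 0.0201) and -0.21 (adjusted p = 0.00865). Scaled by raw library totals neither was called (adjusted p = 0.0942 and 0.105), and neither was after correction for GC content and length (adjusted p = 0.378 and 0.891). The RNF217 call was lost in DESeq2 (adjusted p = 0.0589), and without untreated library 2, untreated library 3 or monensin library 3 (adjusted p = 0.0704, 0.0776 and 0.0559).

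All 3 sensor genes fell, by unequal amounts. IREB2, which encodes the iron regulatory protein that is degraded when iron is plentiful, was at 167, 180 and 187 CPM in untreated and 116, 113 and 103 CPM in monensin libraries. Its monensin libraries were all at least 50 CPM lower than any untreated one, and the log2 fold change was -0.69 (SE 0.05, adjusted p = 1.88e-08). FBXL5, the iron-binding ubiquitin ligase subunit that marks that protein for degradation, went from 120, 124 and 124 CPM to 102, 103 and 99.0 CPM (log2 fold change -0.27, SE 0.04, adjusted p = 3.75e-05). After correction for GC content and length the FBXL5 change was -0.13 (adjusted p = 0.00373). FBXL5 shares 18 exonic bases with FAM200B on the opposite strand.

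ACO1, which is a cytosolic aconitase with an iron-sulfur cluster and an iron regulatory protein without it, changed least of the 3. It had 38.0, 39.7 and 36.2 CPM in untreated and 34.3, 34.7 and 31.5 CPM in monensin libraries, adjacent ranges that did not overlap. The log2 fold change of -0.18 (SE 0.06, adjusted p = 0.0151) lost its call by raw library totals (-0.09, adjusted p = 0.197). It also did so when untreated library 2 was left out (-0.15, adjusted p = 0.0655), and when monensin library 3 was (-0.14, adjusted p = 0.0503).

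**Figure D3:**
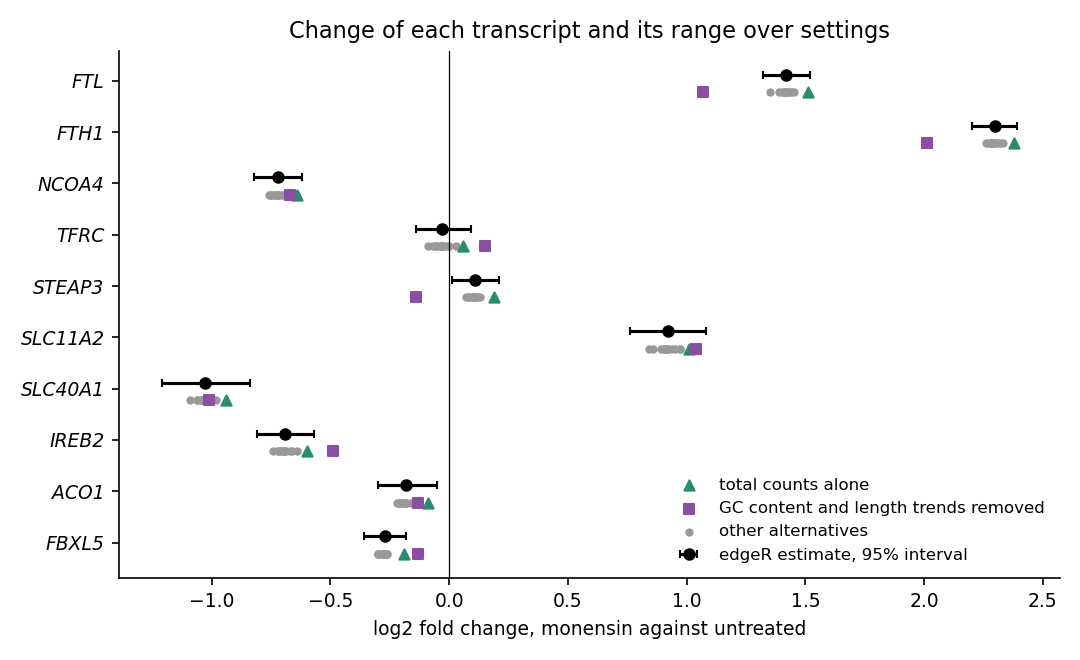
Log2 fold change of each of the 10 genes, monensin against untreated, with the edgeR estimate and its 95% interval in black and the alternative settings below it. FTL, FTH1, SLC11A2, NCOA4, SLC40A1, IREB2, ACO1 and FBXL5 stay on 1 side of 0 in every setting shown, whereas TFRC and STEAP3 cross it.

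The other genes listed for iron sensing and cytosolic iron-sulfur assembly fell in 7 of 11 tested members and rose in 1, where 33.7% of all tested genes fell and 34.1% rose. By raw library totals 3 rose and 5 fell (6582 and 4605 of all tested genes). Correction for GC content and length gave 0 and 8, and it also moved all tested genes to 4878 raised and 6426 lowered. CUL1, the scaffold of the ubiquitin ligase that FBXL5 belongs to, had the largest change of the list, from 253 ± 1.56 to 140.2 ± 0.624 CPM (log2 fold change -0.85, SE 0.04, adjusted p = 3.27e-11). CIAO1, which inserts clusters into target proteins, fell from 103.7 ± 3.37 to 80.8 ± 2.64 CPM. NDOR1 and CIAPIN1, the electron donors of that pathway, fell by 0.46 and 0.29 on the log2 scale. After that correction the NDOR1 change was -0.82 and the CIAO1 change -0.56 in place of -0.36. The median over the list was -0.19, against 0.02 over all tested genes.

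In mitochondria, where iron is built into clusters and haem, 12 of 22 tested genes fell and 5 rose, against 33.7% and 34.1% of all tested genes. By raw library totals 10 fell and 7 rose (4605 and 6582 of all tested genes). Their median log2 change was -0.22. SLC25A37, mitoferrin 1, which imports iron, rose from 82.7 ± 3.56 to 131.5 ± 4.01 CPM. ABCB10, an inner membrane transporter known to bind it, fell from 122 ± 5.15 to 65.8 ± 3.39 CPM. BOLA3 and ISCA1, which act late in cluster assembly, fell by 0.83 (SE 0.08) and 0.50 (SE 0.07) on the log2 scale.

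Genes of haem metabolism were split, with 8 raised and 6 lowered of 17 tested, against 34.1% and 33.7% of all tested genes. Raw library totals gave 10 raised and 4 lowered (6582 and 4605 of all tested genes). Correction for GC content and length gave 7 and 8 (4878 and 6426 of all tested genes). HMOX1, haem oxygenase, which frees iron from haem, had 17, 19 and 22 counts in untreated and 143, 151 and 90 in monensin libraries. In CPM these were 0.682, 0.815 and 0.890 against 5.57, 6.04 and 3.86, and the rise of 2.69 on the log2 scale (SE 0.21, adjusted p = 1.87e-08) was the largest of all listed genes, from a low starting level. BLVRB, a biliverdin reductase downstream of it, rose from 15.6 ± 1.50 to 35.7 ± 1.33 CPM, and SLC48A1, a haem transporter of lysosomes, from 19.0 ± 2.20 to 29.3 ± 1.61 CPM. The SLC48A1 log2 change of 0.63 was 0.39 after correction for GC content and length. ALAS1, which makes the first intermediate of haem, rose from 69.7 ± 1.37 to 158.5 ± 1.26 CPM, and CPOX, a later enzyme of the same path, fell from 42.1 ± 1.29 to 25.2 ± 0.517 CPM.

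Of 5 other tested messages described as holding an iron-responsive element, 1 rose and 2 fell, where 67.8% of all tested genes were called in either direction. EPAS1, hypoxia-inducible factor 2 alpha, rose from 20.0 ± 2.79 to 46.6 ± 6.19 CPM, and CDC14A, a phosphatase, fell from 18.8 ± 0.911 to 12.7 ± 1.74 CPM. Over all 93 listed genes outside the 10, 78 were tested, of which 26 rose and 31 fell (median log2 change 0.04). With 34.1% of all tested genes raised and 33.7% lowered, these counts are no result about the listed genes. By raw library totals 37 rose and 23 fell, where 6582 of all tested genes rose and 4605 fell.

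**Figure D4:**
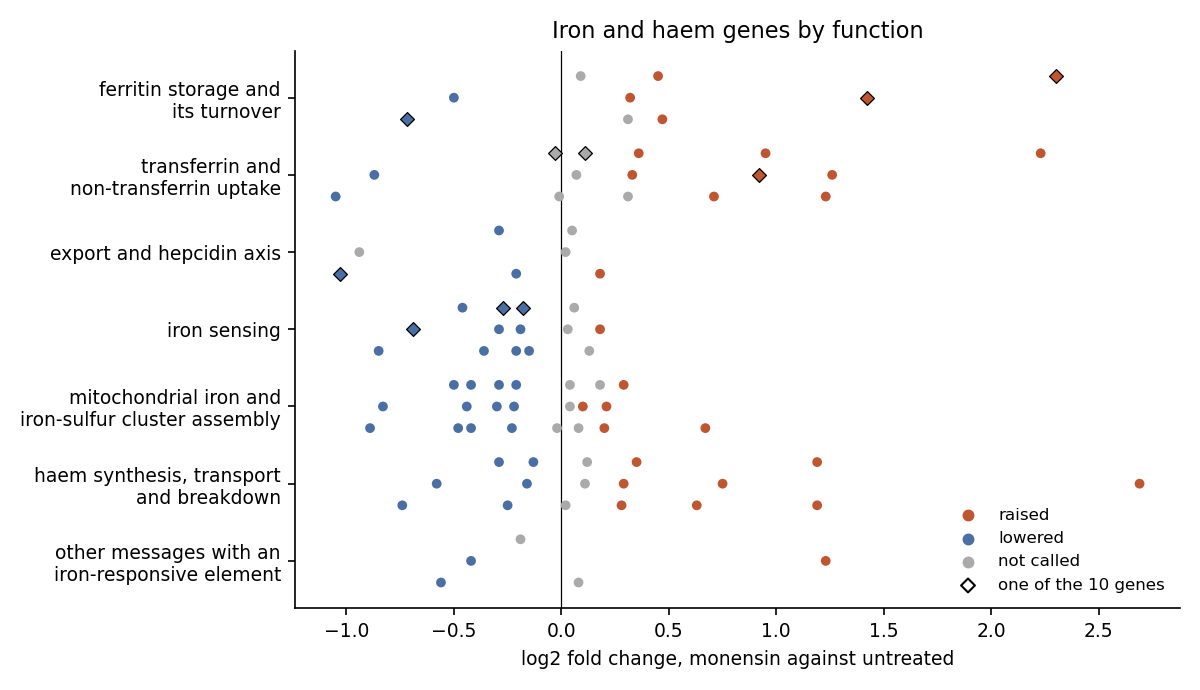
Log2 fold change of every tested gene in the 7 lists of iron and haem genes, 1 point a gene, coloured by call, with diamonds for the 10 genes (vertical spread within a list has no meaning; a gene can stand in more than 1 list). FTH1, FTL, HMOX1 and TF lie farthest to the right, and most genes of sensing and of mitochondrial iron lie to the left of 0.

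Per kilobase of annotated exon, the order of the 10 messages changed below FTL. In untreated libraries FTL stood at 2175 ± 165 CPM per kb, followed by NCOA4 at 64.9 ± 4.03, TFRC at 49.2 ± 3.12, FTH1 at 45.3 ± 1.25 and FBXL5 at 26.8 ± 0.514 CPM per kb (mean ± SD, n = 3). TFRC and FTH1 did not differ beyond their spread, nor did STEAP3 at 17.0 ± 0.333 and IREB2 at 16.5 ± 0.969 CPM per kb. ACO1 at 5.02 ± 0.234, SLC40A1 at 3.26 ± 0.226 and SLC11A2 at 1.99 ± 0.153 CPM per kb were the lowest. After monensin FTL stood at 5828 ± 93.2 and FTH1 at 223 ± 8.90 CPM per kb, with FTH1 now above TFRC at 48.2 ± 3.35 and NCOA4 at 39.3 ± 0.704 CPM per kb. SLC11A2 at 3.77 ± 0.339 CPM per kb now lay above SLC40A1 at 1.60 ± 0.0930 CPM per kb. Lengths are those of all annotated exons merged, so a gene with long rare exons such as SLC11A2 is placed too low. The merged exons of FTH1 span 2030 bases and its longest coding transcript 1229, and its count is uncertain, so its place among NCOA4, TFRC and FBXL5 is uncertain too.

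The authors' deposited table of 2410 regulated genes holds only changes of more than 2-fold and lists 3 of the 10 genes. In the authors' deposited table the log2 fold change of FTH1 is 2.28, that of FTL 1.40 and that of SLC40A1 -1.05. The authors' deposited table also lists 8 ferritin pseudogenes, all with positive values, among them FTH1P8 at 2.07 and FTLP3 at 1.33.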

How the data were processed

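The authors deposited 1 table of raw gene counts per library, not normalized. Per the submitters' processing notes, reads passed through bcl2fastq, Trimmomatic 038 and HISAT2 2.1.0 to HTSeq 0.11.1 on hg38 (GRCh38), and DESeq2 1.22.2 was also used. Annotation release, strand setting and handling of reads with several matches are not given in the sources. The authors also deposited log2 fold changes of regulated genes, with neither errors nor p-values per the file headers. Per the labels' protocols, libraries were directional, with 75 nt single reads. Reads tallied to no gene (19.1% to 22.0% of each tally) entered neither library sizes nor tests.

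The main test was edgeR 4.0.16 in R 4.3.3 (filterByExpr, TMM, quasi-likelihood F test, treatment as sole term) over 16542 genes, checked on simulated data. The simulation changed far fewer genes than were called here, so it could not check the scaling under so broad a change. Standard errors were the unshrunken coefficient divided by the root of F. The ferritin ratio had an exact permutation test (scipy 1.17.1). Positions, merged exon lengths and transcripts came from GENCODE 29 on GRCh38, which had a length for 99.8% of gene identifiers. Alternatives were RLE factors, raw library totals, filters (none, or at least 1 CPM in 3 libraries plus 50 counts overall), a replicate block, DESeq2 1.42.0, omission of each library, a threshold of 0.01, spline correction for GC content and exonic length, omission of mitochondrial genes, and addition of pseudogene counts to FTH1 and FTL.

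The 10 genes and the 7 lists were chosen with earlier results of these data known. Text names all 10, plus from each list at most 4 called genes with the greatest absolute change (average log2 CPM 2 or more), and 6 genes set beforehand. PCBP1, TFR2, HAMP, HEPH, CP, TF and BEST1 were picked after their values were seen. Not every gene covered by this rule is reported here.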

Additional observations from a re-analysis of the deposited data

How the results depend on the processing

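FTH1, FTL, SLC11A2, SLC40A1, NCOA4, IREB2 and FBXL5 kept their direction and their call in all 16 alternatives, with log2 fold changes of 2.01 to 2.38 for FTH1, 1.07 to 1.51 for FTL, 0.84 to 1.04 for SLC11A2, -1.09 to -0.94 for SLC40A1, -0.76 to -0.64 for NCOA4, -0.74 to -0.49 for IREB2 and -0.30 to -0.13 for FBXL5. TFRC turned to 0.06 by raw library totals, 0.15 after correction for GC content and length and 0.03 without monensin library 3 (-0.09 to 0.03 over all left-out libraries), and STEAP3 to -0.14 after that correction; the cause was not tested. ACO1 lost its call in 4 of 16 alternatives, among them the threshold of adjusted p under 0.01, which reuses the main fit and can change only calls. Raw library totals moved the median log2 fold change of all tested genes from 0.02 to 0.11. Libraries left out in turn gave a ferritin log2 ratio difference of 0.84 to 0.91. No pairing by replicate number was visible: deviations of same-numbered libraries correlated at -0.119, 0.140 and 0.0414. Those of differently numbered libraries correlated at -0.200 to 0.159. With 3 libraries per group, these values do not settle whether libraries of the same number were handled together. With the replicate block, the ferritin ratio difference was 0.87 (exact p = 0.25, the smallest that 3 pairs allow), 3 of the 10 genes were raised and 5 lowered, and 5515 of all genes were raised and 5435 lowered, against 5638 and 5570 without it. SLC40A1 rests on 151 to 366 counts per library, the lowest of the 10 genes.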

Other observations

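The genes whose centred log2 CPM profiles over the 6 libraries lay nearest to that of FTH1 were ASAH1 (distance 0.0837), BCL3 (0.137) and PHGDH (0.144). For FTL they were GYPC (0.0974), CTNS (0.107) and its own pseudogene FTLP3 (0.115), and for SLC40A1 they were PPP2R1B (0.0361), OTUD6B (0.0480) and XPO4 (0.0634). With 2 groups of 3 libraries, such a distance mainly ranks genes by the size of their change between the groups. TF, the gene of transferrin itself, had 8, 8 and 11 counts in untreated and 47, 36 and 47 in monensin libraries (log2 fold change 2.23, SE 0.26, edgeR adjusted p = 1.83e-06).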
